A study of Mus musculus with 6 samples.

Results

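The 8 genes described here set how much sterol a cell makes, moves and exports: the transcription factor genes Srebf1 and Srebf2, the genes of their sterol sensors Scap, Insig1 and Insig2, the sterol carrier gene Stard4, and the efflux transporter genes Abca1 and Abcg1. They were taken by gene name from a table of 54532 mouse genes, by a rule that uses no measured value, and all 8 were among the 18226 genes that passed the filter on low counts. The RNA came from mouse pancreatic buds, taken at E12.5 and kept in explant culture for 2 days. TBZ buds (3 libraries) received 0.1 µM tetrabenazine, an inhibitor of the vesicular monoamine transporter VMAT2, for the whole culture, and Control buds (3 libraries) received none; the medium of both held 10% fetal bovine serum and 0.1% DMSO. Serum brings lipoprotein cholesterol to both groups, strain and litter are not stated in the labels, and the study asked how monoamine loading by VMAT2 acts on pancreatic development.

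SREBP-1 and SREBP-2, the products of Srebf1 and Srebf2, are made as membrane proteins of the endoplasmic reticulum, where they are bound by SCAP. When membrane cholesterol is low, SCAP carries them to the Golgi, proteases release their DNA-binding part, and this turns on genes of cholesterol synthesis (chiefly SREBP-2) or fatty acid synthesis (chiefly SREBP-1). When sterols are plentiful, the INSIG proteins hold SCAP back in the endoplasmic reticulum, while oxidised sterols activate the nuclear receptor LXR, which induces Abca1, Abcg1 and Srebf1. Insig1 is itself an SREBP target, so its transcript is commonly read as a gauge of SREBP activity. The activity of SREBPs is set mostly by cleavage of the proteins, which was not measured here.

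SREBPs and LXR act through short elements in promoters, and 4 stretches are shown because Insig1, Srebf2, Srebf1 and Abca1 are known targets of those factors. They come from RefSeq windows on GRCm38.p6, from 250 bases before to 50 bases after each annotated start, and 6 of the 8 genes had a window. Capitals mark matches to TCACCCCA (a core of the sterol regulatory element), the LXR element (its direct repeat form, with 2 bases of the spacer left free) or, in Srebf1 only, a shorter core of it, CACGTG (an E-box) and CCAAT (the box bound by NF-Y, a partner of SREBPs), on either strand.
Insig1 (chr5:28071162-28071361, plus strand): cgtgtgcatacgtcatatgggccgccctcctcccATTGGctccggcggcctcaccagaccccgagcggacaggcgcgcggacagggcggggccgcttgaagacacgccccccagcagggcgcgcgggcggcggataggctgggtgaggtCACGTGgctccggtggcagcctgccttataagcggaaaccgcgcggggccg
Srebf2 (chr15:82147079-82147178, plus strand): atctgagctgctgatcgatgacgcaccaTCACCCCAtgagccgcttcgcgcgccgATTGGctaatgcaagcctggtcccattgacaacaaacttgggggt
Srebf1 (chr11:60210572-60210671, minus strand): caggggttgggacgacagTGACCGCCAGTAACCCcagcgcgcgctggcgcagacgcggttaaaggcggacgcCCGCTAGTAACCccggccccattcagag
Abca1 (chr4:53159931-53160060, minus strand): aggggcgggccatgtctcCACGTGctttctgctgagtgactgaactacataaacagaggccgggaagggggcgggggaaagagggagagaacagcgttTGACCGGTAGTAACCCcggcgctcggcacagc

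The letters TCACCCCA stood 162 bases before the Srebf2 start and in 1.77% of 27025 genes with a window. They stood in the windows of 1 of 18 matched sterol synthesis genes and in none of the windows of Insig1, Srebf1, Scap, Insig2 and Abca1. Only these exact letters were sought, so their absence does not show that a window lacks a sterol regulatory element. The long LXR motif stood 182 bases before the start of the SREBP-1c form of Srebf1 and 67 bases before the Abca1 start. It was found in 3 of the 27025 genes, a count that says little because the motif was written with these known elements in view. CCAAT stood in the windows of 16 of those 18 sterol synthesis genes, and in 41.1% of all genes with a window. CACGTG stood in the windows of 3 of those 18 and in 8.09% of all genes. These matches describe letters and do not show that a factor was bound in the buds.

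The libraries held 35825033 to 40973254 counted reads in TBZ and 41005819 to 50620936 in Control, and each of the 8 genes had at least 512 reads in every library. All 10 pancreatic epithelium markers were detected, and 1 of these (Cpa1, also an acinar gene) rose in TBZ by the edgeR test, beside 0.154% of all tested genes called higher. All 10 had a positive log2 fold change (median 0.27). An unadjusted p under 0.05 was reached by 7, beside 5.08% of all tested genes higher in TBZ at that level. DESeq2 called 4 (Cpa1, Nkx6-1, Neurog3 and Pdx1), beside 1.09% of the genes it tested called higher. The groups did not overlap for 6, beside 8.47% of all tested genes in that direction. Summed levels of the 10 were 1932 to 2166 CPM (counts scaled to a common library total) in TBZ and 1480 to 1616 CPM in Control. Over the 10 acinar markers, which cover digestive enzyme genes among others, 6 of 9 tested rose in TBZ by the edgeR test. Of all tested genes, 0.154% were called higher by that test. Summed levels of the acinar markers were 8317 to 10070 CPM in TBZ and 5481 to 6549 CPM in Control. The 16 macrophage markers summed to 572 to 734 CPM in TBZ and 593 to 738 CPM in Control, and the 12 mesenchyme markers to 7613 to 8671 CPM in TBZ and 7480 to 8608 CPM in Control. Control replicate 3 stood apart for the 12 stomach and oesophagus markers, whose sum was 316 CPM there, 185 and 194 CPM in the other Controls and 138 to 211 CPM in TBZ. The part of these shifts in the values of the 8 genes was not tested. In bulk RNA, fewer cells of a type and less RNA per cell cannot be told apart.

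On the per-length scale (FPKM, fragments per kilobase of gene length, scaled to library size), Insig1 was the highest of the 8 genes, at 58.2 to 71.2 FPKM over the 6 libraries, above 96.2% of tested genes. Srebf2 followed at 50.1 to 55.5 FPKM, and the ranges of these genes did not overlap. Stard4 (26.9 to 31.0 FPKM) and Srebf1 (24.7 to 28.8 FPKM) overlapped, with Stard4 the higher in 5 of 6 libraries. Scap (9.54 to 10.3 FPKM) lay above Insig2 (8.34 to 9.14 FPKM) in all 6 libraries. Abca1 (3.91 to 7.13 FPKM) and Abcg1 (3.00 to 4.26 FPKM) were the lowest, and their ranges overlapped because of Abca1 in Control replicate 3, although Abca1 was above Abcg1 within each of the 6 libraries.

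**Figure D1:**
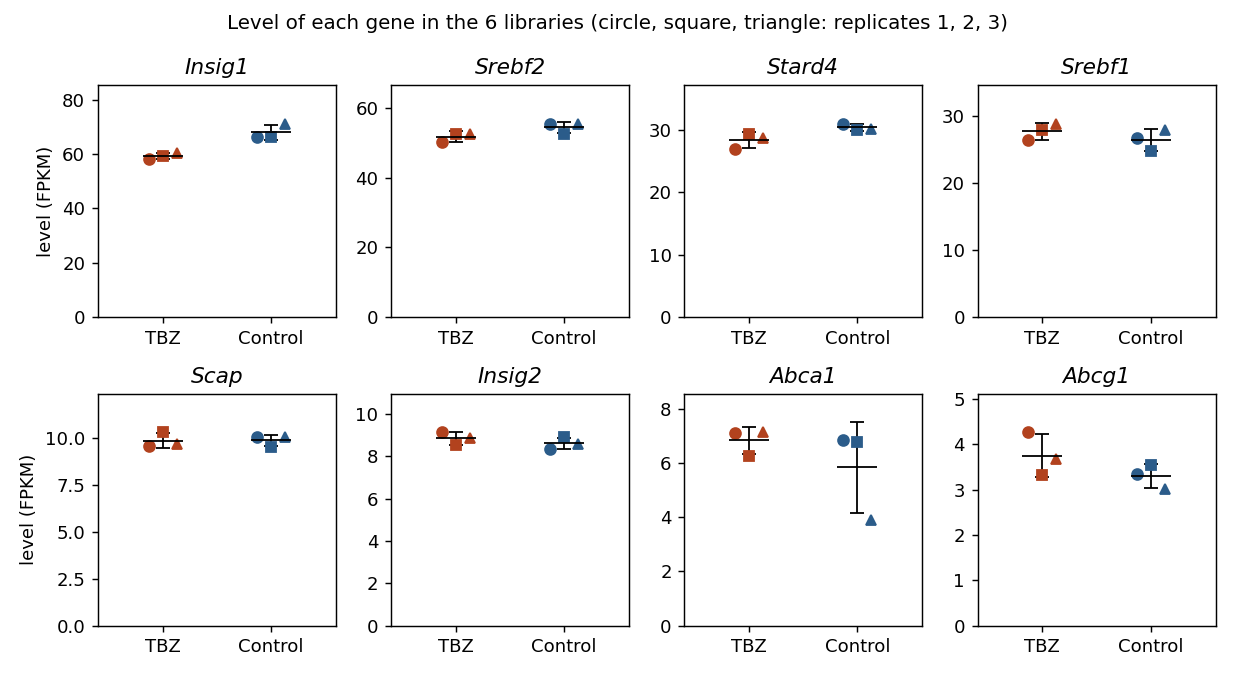
Level of the 8 genes in FPKM (vertical axes, from 0) in the 3 TBZ and 3 Control libraries; symbols mark replicates 1, 2 and 3, the horizontal bar the mean and the error bar the SD. TBZ libraries lie wholly below Control libraries for Insig1 and Stard4, and Control replicate 3 is far below every other library for Abca1.

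None of the 8 genes passed the edgeR quasi-likelihood test at a Benjamini-Hochberg adjusted p under 0.05, where 0.187% of all tested genes passed. At an unadjusted p under 0.05 there was 1, Insig1, beside 9.61% of all tested genes (5.08% higher and 4.54% lower in TBZ). DESeq2 at its adjusted threshold called the same 1 gene, beside 1.43% of the genes it tested (1.09% higher and 0.335% lower). So did the authors' deposited table, beside 0.767% of its genes with an adjusted p (0.588% higher and 0.180% lower). The deposited values of the 8 genes nearly equal those of DESeq2, so these calls are not independent. TBZ and Control libraries did not overlap for 2 of the 8, Insig1 and Stard4, both lower in TBZ, beside 15.5% of all tested genes (8.47% higher and 7.03% lower). The sign alone was negative for 4 of the 8 and for 49.9% of all tested genes, and positive for 50.1%. The median log2 fold change over all tested genes was 0.00031, which is taken as no shift in the values below.

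The sterol sensor Insig1 was the member with the clearest difference. Its protein retains SCAP in the endoplasmic reticulum and is degraded when sterols are scarce. The gene lies at chr5:28071363-28078662 (mm10) on the plus strand and overlaps no other annotated gene. It stood at 180, 183 and 188 CPM in TBZ replicates 1 to 3, against 206, 206 and 221 CPM in Control replicates 1 to 3. Every TBZ library was below every Control library, and the gap between the nearest pair was wider than the spread within TBZ. The means were 184 ± 3.69 CPM in TBZ and 211 ± 8.68 CPM in Control (SD, n = 3 each), a difference of -12.9%. The log2 fold change was -0.20 ± 0.04 (SE), with a 95% interval from -0.30 to -0.10 and an edgeR adjusted p of 0.155, rank 159 of 18226 by p. DESeq2 gave the gene an adjusted p of 0.0193. The authors' deposited values for it nearly equal the DESeq2 ones, with a log2 fold change of -0.20 and an adjusted p of 0.0192. Leaving out each library in turn kept the log2 fold change between -0.22 and -0.16, with edgeR adjusted p-values from 0.148 to 0.469. The value of -0.16 came without Control replicate 3, the library in which Insig1 was highest. Insig1 passed the threshold in 2 of 16 alternative fits, DESeq2 and edgeR with no filter, and its log2 fold change was negative in all 16.

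Insig2 encodes the second INSIG protein, which binds SCAP in the same way but whose gene is not driven by SREBPs. It lies at chr1:121304353-121332589 (mm10) on the minus strand. It had 31.8, 29.8 and 30.9 CPM in TBZ replicates 1 to 3, against 29.0, 31.0 and 30.0 CPM in Control replicates 1 to 3. The groups overlapped, and the log2 fold change was 0.04 ± 0.05 (SE; 95% interval -0.08 to 0.16; edgeR adjusted p = 0.856). The interval leaves out a fall of the size seen for Insig1.

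Within a library the ratio of both transcripts needs no scaling between libraries. Per length, Insig1 exceeded Insig2 by 6.37, 6.92 and 6.82 times in TBZ replicates 1 to 3, against 7.97, 7.46 and 8.28 times in Control replicates 1 to 3. All 3 TBZ ratios were below all 3 Control ratios, with means of 6.70 ± 0.294 in TBZ and 7.91 ± 0.414 in Control (SD, n = 3 each). The difference of the log2 ratios was -0.24 (two-sided exact permutation p = 0.1, the smallest that 3 against 3 libraries can give, and 0.133 after adjustment over 4 ratios).

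Scap, which encodes the escort and cholesterol sensor that carries SREBPs to the Golgi, showed the smallest difference. The gene lies at chr9:110333288-110384950 (mm10) on the plus strand. Its level was 71.6, 76.9 and 72.4 CPM in TBZ replicates 1 to 3, against 74.8, 71.2 and 75.0 CPM in Control replicates 1 to 3. The groups overlapped almost fully: the means were 73.6 ± 2.88 CPM in TBZ and 73.7 ± 2.14 CPM in Control (SD, n = 3 each). The log2 fold change had a 95% interval of -0.10 to 0.10 (edgeR adjusted p = 0.998).

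**Figure D2:**
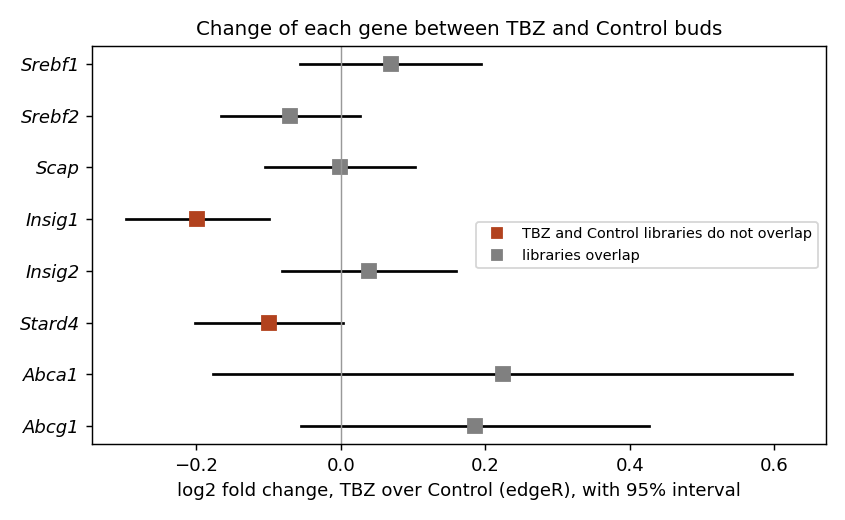
Log2 fold change of TBZ over Control from edgeR (horizontal axis) for the 8 genes, with 95% intervals; coloured squares are genes whose TBZ and Control libraries do not overlap. Only the Insig1 interval lies clear of 0, and those of Abca1 and Abcg1 are the widest.

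Srebf2 encodes SREBP-2, the main activator of cholesterol synthesis, and is one of its own targets. The gene lies at chr15:82147181-82205379 (mm10) on the plus strand. It stood at 361, 379 and 380 CPM in TBZ replicates 1 to 3, against 400, 378 and 398 CPM in Control replicates 1 to 3. Control replicate 2 lay among the TBZ libraries, and the other Controls lay above all of them. The log2 fold change was -0.07 ± 0.04 (SE; 95% interval -0.17 to 0.03; edgeR adjusted p = 0.644).

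An intron of Srebf2 holds the microRNA gene Mir33, whose product is known to repress Abca1 and Abcg1 in mice and is shown for that link between the factor and the efflux genes. Its seed, bases 2 to 8, is in capitals.
mmu-miR-33-5p: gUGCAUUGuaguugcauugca
Mir33 is listed with 0 reads in all 6 libraries, which were made from poly-A RNA and do not measure mature microRNAs, so nothing follows about its level.

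Srebf1 encodes SREBP-1a and SREBP-1c, the second of which is induced by LXR and insulin and drives fatty acid synthesis. The gene lies at chr11:60199089-60222581 (mm10) on the minus strand, its last 109 bases overlap Rai1 on the other strand, and the counts do not separate its forms. It stood at 149, 157 and 163 CPM in TBZ replicates 1 to 3, against 151, 139 and 157 CPM in Control replicates 1 to 3. The groups overlapped, and the log2 fold change was 0.07 ± 0.06 (SE; 95% interval -0.06 to 0.19; edgeR adjusted p = 0.735). Relative to Srebf2 per length, Srebf1 stood at 0.526, 0.528 and 0.547 in TBZ replicates 1 to 3, against 0.481, 0.470 and 0.503 in Control replicates 1 to 3. These ratios did not overlap: the difference of the log2 ratios was 0.14 (two-sided exact permutation p = 0.1, the smallest possible; 0.133 adjusted over 4 ratios). The ratio of Srebf2 to its escort gene Scap was 5.23, 5.11 and 5.44 in TBZ replicates 1 to 3, against 5.54, 5.50 and 5.50 in Control replicates 1 to 3, with the same exact p of 0.1 (log2 difference -0.07).

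Stard4 encodes a small soluble protein that carries cholesterol between membranes, and it is an SREBP-2 target. The gene lies at chr18:33199355-33213862 (mm10) on the minus strand. It stood at 151, 165 and 162 CPM in TBZ replicates 1 to 3, against 174, 168 and 169 CPM in Control replicates 1 to 3. The groups did not overlap, but the highest TBZ library was closer to the Controls than to the lowest TBZ library. The means were 159 ± 7.28 CPM in TBZ and 170.2 ± 2.92 CPM in Control (SD, n = 3 each), with a log2 fold change of -0.10 ± 0.05 (SE; 95% interval -0.20 to 0.0028; edgeR adjusted p = 0.537).

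Abca1 encodes the transporter that passes cholesterol and phospholipid to lipid-poor apolipoprotein A-I. The gene lies at chr4:53030787-53159895 (mm10) on the minus strand. It stood at 74.0, 65.0 and 74.3 CPM in TBZ replicates 1 to 3, against 71.3, 70.4 and 40.6 CPM in Control replicates 1 to 3. Control replicates 1 and 2 lay within the TBZ range, and Control replicate 3 lay 0.80 below them on the log2 scale. Its log2 fold change was 0.22 ± 0.18 (SE; 95% interval -0.18 to 0.62; edgeR adjusted p = 0.733). Without Control replicate 3 it was 0.0074 (edgeR adjusted p = 0.985), so that this 1 library supplied nearly all of the difference.

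The spread of Abca1 within groups exceeded that of 99.6% of the 2802 tested genes at a similar level. Beside it, the 2307 protein-coding genes of at least 8000 bases were lower in Control replicate 3 than in the other Controls, with a median log2 difference of -0.11, while the 1087 genes of 1000 to 2000 bases were higher there, at 0.03. The gene model of Abca1 is 10363 bases long. Srebf2 and Scap, the next longest of the 8 at 7184 and 7443 bases, differed from the other Controls by 0.04 each in that library. Both belong to the 4679 genes of 4000 to 8000 bases, which had a median of -1.3e-05 in that library, and not to the longest group. The stomach and oesophagus markers were also high there, and the part of either in the Abca1 value was not tested.

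Abcg1 encodes a transporter that loads cholesterol onto high-density lipoprotein particles. The gene lies at chr17:31057698-31115777 (mm10) on the plus strand. It stood at 17.4, 13.5 and 15.0 CPM in TBZ replicates 1 to 3, against 13.6, 14.4 and 12.3 CPM in Control replicates 1 to 3. TBZ replicate 1 was the highest library and TBZ replicate 2 lay within the Control range. Its log2 fold change was 0.19 ± 0.11 (SE; 95% interval -0.06 to 0.43; edgeR adjusted p = 0.626), and it was 0.08 without TBZ replicate 1. The ratio of Abca1 to Abcg1 per length was 1.67, 1.89 and 1.94 in TBZ replicates 1 to 3, against 2.05, 1.91 and 1.30 in Control replicates 1 to 3 (log2 difference 0.09, two-sided exact permutation p = 0.9, and also 0.9 adjusted over 4 ratios). Without Control replicate 3 the direction of that difference reversed, to -0.11.

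The transcripts most like each gene were sought among 124 genes of the pathway lists, by the root mean square difference of log2 CPM over the 6 libraries, each gene taken relative to its Control mean. For Insig1 these were Sqle (0.024), the squalene epoxidase gene, and Idi1 (0.037), the isopentenyl diphosphate isomerase gene, both SREBP-2 targets, against a median of 0.16 over the 124. For Stard4 they were Scd2 (0.021), a fatty acid desaturase gene, and Acsl3 (0.027), an acyl-CoA synthetase gene, against a median of 0.12. For Srebf2 the closest was Nfyc (0.024), which encodes a subunit of NF-Y. For Srebf1 it was Rxrb (0.036), which encodes a partner of LXR, and for Insig2 Erlin2 (0.024), whose product takes part in degradation at the endoplasmic reticulum. The closest to Abca1, whose own spread was large, were Stard9 (0.14) and the apolipoprotein gene Apoc1 (0.17), against a median of 0.36. Both were also low in Control replicate 3, which a choice by closeness to the Abca1 profile favours. Close values are easy to find for a gene that varies little, and likeness over 6 libraries says nothing of shared control.

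**Figure D3:**
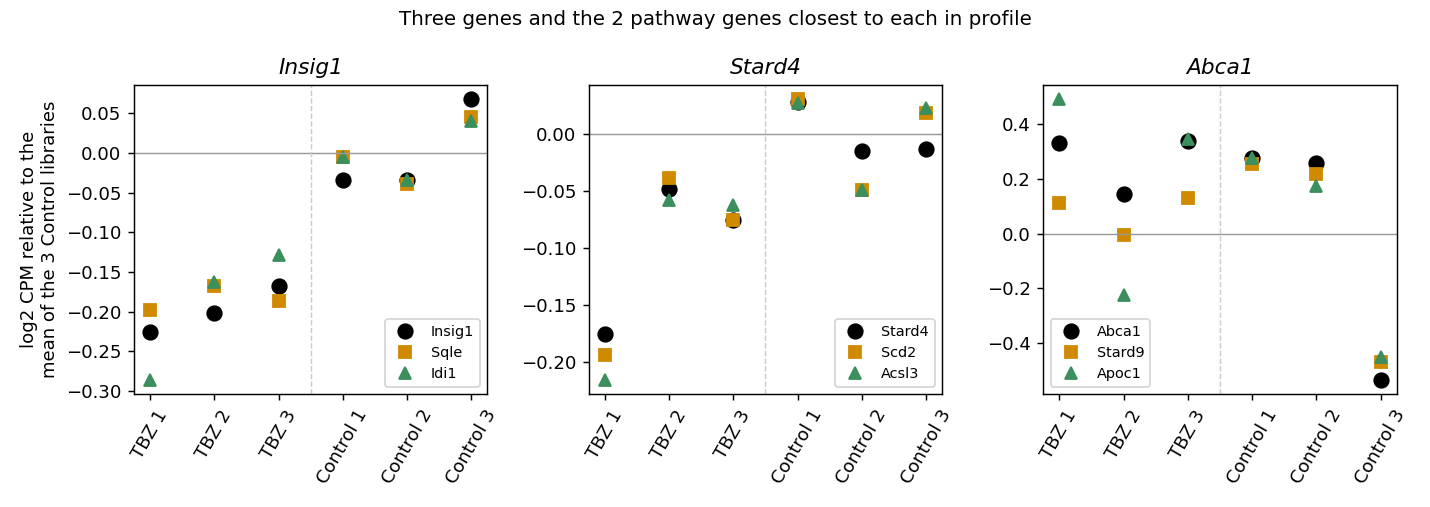
Log2 CPM relative to the mean of the 3 Control libraries (vertical axes, each panel with its own scale) in each library for Insig1, Stard4 and Abca1 (black) and the 2 pathway genes closest to each. Insig1, Sqle and Idi1 lie below every Control library in all 3 TBZ libraries, and Abca1, Stard9 and Apoc1 share a low value in Control replicate 3.

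The enzymes of sterol synthesis are the main targets of SREBP-2 and give the setting for Insig1. All 22 tested had a negative log2 fold change, from -0.39 to -0.01 with a median of -0.22. Their summed level was highest in Control replicate 3, at 3497 CPM. It was 3273 and 3161 CPM in Control replicates 1 and 2, and 2723 to 2941 CPM in TBZ. By edgeR 2 fell, Hsd17b7 and Msmo1 (both -0.31), which act late in the pathway, and none rose. Of all tested genes, 0.0329% were called lower. An unadjusted p under 0.05 was reached by 18 of the 22, beside 4.54% of all tested genes lower in TBZ at that level. DESeq2 called 9, beside 0.335% of the genes it tested called lower. The edgeR count was 0 with the replicate block and on leaving out any 1 library other than Control replicate 3, and limma called 0 in each of 4 fits. The next by p, Cyp51 (lanosterol demethylase), stood at -0.27 on the log2 scale (edgeR adjusted p = 0.0753). The log2 fold change of Insig1 (-0.20) lay inside their range, with 12 of the 22 more negative, whereas those of Srebf2 (-0.07) and Stard4 (-0.10) were nearer to 0 than the median of the enzymes.

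Of 13 other genes reported as SREBP-2 targets, which leaves out Insig1 and Stard4 but shares Sqle with the enzymes, 12 had a negative log2 fold change (median -0.10). None passed the edgeR test. An unadjusted p under 0.05 was reached by 5, 1 higher and 4 lower in TBZ, beside 9.61% of all tested genes. Over the full list of 15 genes, with Insig1 and Stard4, DESeq2 called 5, beside 1.43% of the genes it tested. These were Insig1, Sqle, Lpin1 and Rdh11, lower in TBZ, and Tmem97, higher in TBZ. Lpin1, Acsl3, Fads2 and Elovl5 are also among the SREBP-1 targets below. Lpin1, a phosphatidate phosphatase gene, stood at 24.95, 24.45 and 24.13 CPM in TBZ and 30.8, 33.2 and 30.0 CPM in Control replicates 1 to 3 (log2 -0.35, edgeR adjusted p = 0.0627, DESeq2 adjusted p = 0.00157). Tmem97, which encodes a sterol-responsive endoplasmic reticulum protein known as the sigma-2 receptor, was the exception in direction. It stood at 194, 203 and 206 CPM in TBZ and 166, 165 and 148 CPM in Control replicates 1 to 3 (log2 0.33 ± 0.05 SE, edgeR adjusted p = 0.0546, DESeq2 adjusted p = 2.22e-05). All 3 TBZ libraries were above all 3 Control libraries, the opposite of Insig1. Sqle followed by p, at -0.18 on the log2 scale (edgeR adjusted p = 0.144).

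The machinery that acts on the SREBPs and INSIGs after they are made showed a median log2 fold change of -0.01 over 21 tested genes, 10 positive and 11 negative. None passed the edgeR test, none by DESeq2, and 1 had an unadjusted p under 0.05, beside 9.61% of all tested genes. That gene was Fbxw7, part of a ubiquitin ligase that marks nuclear SREBPs for breakdown, with 34.3, 35.7 and 34.2 CPM in TBZ and 39.3, 37.5 and 39.2 CPM in Control replicates 1 to 3 (log2 -0.15, edgeR adjusted p = 0.320). Paqr3, a Golgi anchor of SCAP (log2 -0.29), and the deubiquitinase gene Usp20 (-0.09) came next by p. The genes of the Golgi proteases that cut SREBPs, Mbtps1 (0.04) and Mbtps2 (-0.01), chosen for their role after their values were seen, had log2 fold changes close to 0.

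The LXR side of the system showed no called gene. Of 8 tested genes of LXR receptors and their partners, 6 were positive (median 0.09). None passed with edgeR or DESeq2, and 1 had an unadjusted p under 0.05, beside 9.61% of all tested genes. The corepressor gene Ncor1 (log2 0.13, edgeR adjusted p = 0.662) stood at 192 CPM in Control replicate 3, the lowest of the 6 libraries. Nr1h3, which encodes LXR-alpha, was low, at 2.06, 1.55 and 1.37 CPM in TBZ and 1.73, 2.64 and 2.51 CPM in Control replicates 1 to 3, while Nr1h2, which encodes LXR-beta, stood at 42.6 to 44.9 CPM in TBZ and 41.8 to 50.9 CPM in Control. Of 15 other LXR target genes, 6 were positive and 9 negative (median -0.03), with none at an unadjusted p under 0.05 and none called by DESeq2. The lowest p-values were those of the phospholipid transfer gene Pltp (log2 -0.24), Nr1h3 itself (-0.46) and Lpcat3 (-0.09), which remodels membrane phospholipids. Beside these stand the positive log2 fold changes of Abca1 (0.22) and Abcg1 (0.19), which did not pass the test either.

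Fatty acid genes known as SREBP-1 targets had a median log2 fold change of -0.10 over 19 tested, 5 positive and 14 negative, beside a log2 fold change of 0.07 for Srebf1. None passed with edgeR, and 5 had an unadjusted p under 0.05, beside 9.61% of all tested genes. DESeq2 called 2, beside 1.43% of the genes it tested. These were Lpin1, lower in TBZ, and Acacb, which encodes the mitochondrial acetyl-CoA carboxylase and stood at 18.8, 17.3 and 19.4 CPM in TBZ and 15.4, 14.5 and 12.9 CPM in Control replicates 1 to 3 (log2 0.37, edgeR adjusted p = 0.179, DESeq2 adjusted p = 0.0264). The malic enzyme gene Me1 stood at -0.19 on the log2 scale (edgeR adjusted p = 0.257).

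**Figure D4:**
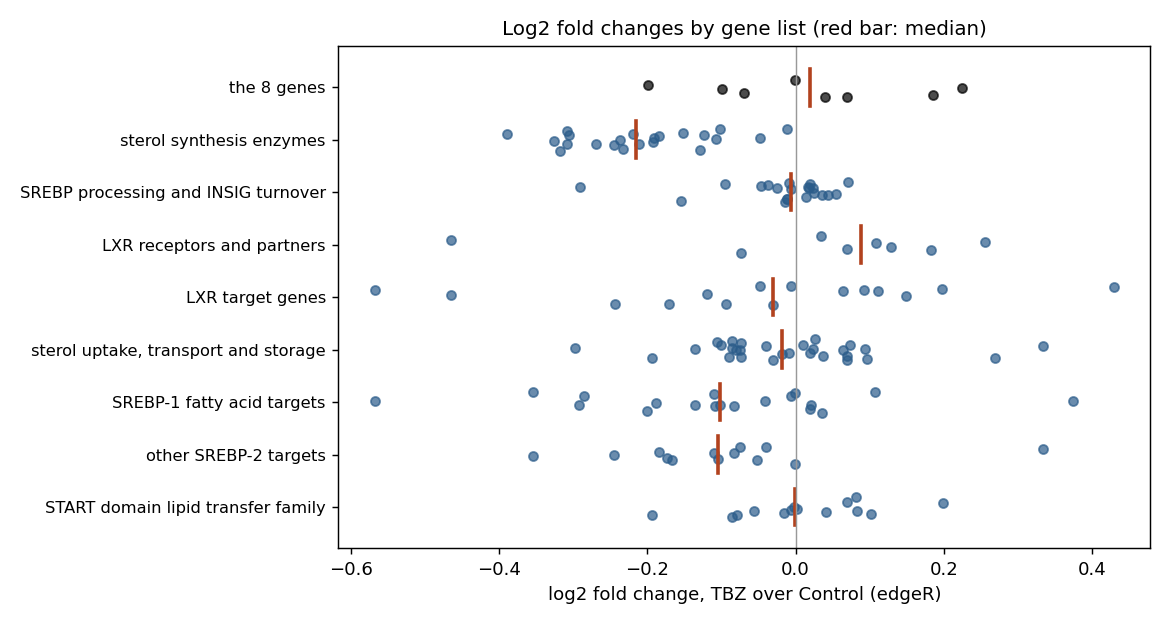
Log2 fold changes of TBZ over Control from edgeR (horizontal axis) for the 8 genes (top row, black) and for tested genes of 8 pathway lists without them (blue); points are spread vertically for clarity and the red bar is the median. All sterol synthesis enzymes lie below 0, while the lists of SREBP processing, LXR targets and sterol transport centre near 0.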

How the data were processed

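Per the labels' protocols, poly-A RNA from cultured buds was made into libraries with a NEBNext Ultra kit. STAR, HTSeq and mm10 are named in the submitters' processing notes, with no versions. The deposited table holds raw counts per gene with no normalization, per the file headers. Its FPKM values were made by the authors from those counts and gene lengths, and its signal values are the authors' group means of scaled counts. The authors' log2 fold changes, p-values and adjusted p-values are deposited beside them, with no tool named. Deposited gene positions and lengths are in bases, a column of other values.

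Counts of all 6 libraries were tested with edgeR 4.0.16 (R 4.3.3; filterByExpr, TMM, quasi-likelihood F test), adjusted over all 18226 tested genes. SE was taken as |log2 fold change| / sqrt(F), and intervals are at 95%. CPM values are TMM-scaled. DESeq2 1.42.0, limma 3.58.1 on log2(FPKM + 0.5), with pseudocounts of 0.1 and 1, other scalings, no filter, a replicate block and leaving out each library were alternatives. A robust edgeR fit was added after seeing the data, as was the split by gene length. Two-sided exact permutation tests compared the ratios. The code was tested on simulated counts. Named pathway genes are the called genes, the 3 with the lowest p in each list and the 2 nearest in profile, unless said otherwise; some genes that this rule names are not reported here. The genes, lists and motifs were chosen with earlier results of these data known. Whether replicates came from separate cultures is not stated, and p-values then cover only the spread among these 6 libraries, which may be technical. The labels do not say that replicate numbers pair the libraries, and the main test did not pair them. Sequences are from RefSeq (GRCm38.p6); overlaps with other genes are from GENCODE M21.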

Additional observations from a re-analysis of the deposited data

How the results depend on the processing

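The count of genes changed over the whole table was 34 with edgeR, 222 with DESeq2, 445 with no filter, 5 with the replicate block, 13, 14 and 4 with limma at pseudocounts of 0.5, 0.1 and 1, 0 with limma and no filter, and 5 to 36 with 1 library left out; the cause was not tested. Leaving out Control replicate 2 gave 13, TBZ replicate 1 gave 11 and TBZ replicate 3 gave 5. Of the 8 genes, 1 (Insig1) passed with DESeq2 and 1 (Insig1, adjusted p = 0.0243) with no filter, and 0 in the other fits. For sterol synthesis enzymes the count of 2 became 9 with DESeq2, 12 with no filter, 0 with the replicate block, 0 in each of the 4 limma fits and 0 to 2 with 1 library left out, where it was 2 only without Control replicate 3. For other SREBP-2 targets 0 became 5 with DESeq2, 5 with no filter, 2 with upper-quartile scaling, 2 with the robust fit and 0 to 1 with 1 library left out. For SREBP-1 targets it became 2, 3, 1 and 1 in the same 4 fits, and for sterol uptake and transport genes 2, 2, 1 and 1, with 0 to 1 on leaving out 1 library. For LXR receptors and partners it became 1 with no filter.

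The log2 fold change of Scap changed sign without Control replicate 1, Control replicate 3, TBZ replicate 1 or TBZ replicate 3, ranging from -0.032 to 0.017 when each library was left out, and the Abca1 to Abcg1 difference ranged from -0.11 to 0.22. The other 7 genes kept their direction in all 16 fits. Deviations from the group mean correlated at 0.0043, -0.154 and -0.079 between same-numbered libraries, for replicates 1 to 3. Between unlike numbers the correlations ran from -0.088 to 0.149. With 3 libraries a group, these values cannot show whether the libraries were paired. With the replicate block Insig1 had a log2 fold change of -0.20 and an adjusted p of 0.313, and no permutation over 3 pairs can go below p = 0.25, the value for the Insig1 to Insig2, Srebf1 to Srebf2 and Srebf2 to Scap ratios. The log2 differences of the ratios are the same from CPM as from FPKM by construction. With 3 libraries a group, the printed intervals give the precision of each log2 fold change.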

Other observations

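Genes of sterol uptake, transport and storage beyond the 8 had a median log2 fold change of -0.02 over 29 tested, and none passed with edgeR. An unadjusted p under 0.05 was reached by 3, beside 9.61% of all tested genes. DESeq2 called 2, Tmem97 and Cyp39a1, beside 1.43% of the genes it tested. Cyp39a1, an oxysterol hydroxylase gene, stood at 39.1, 38.9 and 42.0 CPM in TBZ and 34.5, 33.5 and 31.7 CPM in Control replicates 1 to 3 (log2 0.27 ± 0.05 SE, edgeR adjusted p = 0.124, DESeq2 adjusted p = 0.0264). Npc2, whose product hands lysosomal cholesterol on, stood at 231, 236 and 238 CPM in TBZ and 246, 255 and 250.2 CPM in Control replicates 1 to 3 (log2 -0.09, edgeR adjusted p = 0.496). For both genes the groups did not overlap. In the list of 29 this held for 3 genes higher and 2 lower in TBZ, beside 15.5% of all tested genes.

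Among 14 relatives of Stard4 with a START lipid-binding domain or a related one, 7 had a positive and 7 a negative log2 fold change. None passed with edgeR or DESeq2, and 1 had an unadjusted p under 0.05, beside 9.61% of all tested genes. That gene was Stard10, a phospholipid carrier gene, at 101, 96.6 and 107 CPM in TBZ and 96.9, 82.7 and 85.98 CPM in Control replicates 1 to 3 (log2 0.20 ± 0.07 SE, edgeR adjusted p = 0.366). Stard13 followed by p, with a log2 fold change of 0.08. The value of Stard4 (-0.10) lay inside the range of this family, from -0.19 to 0.20.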
